A study of Rattus norvegicus with 32 samples.

Results

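Interferon-stimulated genes were followed in the left ventricle of septic rats, with and without landiolol, in males and females. The group held 44 genes, all of those on a list of transcription factors, sensors and effectors of the interferon response whose names were carried by the array. It was read by 62 of the 45598 probes, and 44 of the 34912 gene names on the array belonged to it. Of the 44 genes, 43 were bright enough to be tested in males (all except Ifit1) and 42 in females (all except Ifit1 and Zbp1).

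The study asked how sepsis and a selective beta1-adrenergic blocker, landiolol, altered cardiac gene expression in each sex. Wistar rats aged 9 to 12 weeks had cecal ligation and puncture (CLP, a model of abdominal sepsis in which gut content leaks into the peritoneum) or sham surgery, after buprenorphine. All groups were infused with saline, and the CLP plus landiolol group was given landiolol at 0.1 mg/kg/min from 1 h after CLP. Hearts were imaged in vivo, their function was then measured ex vivo, and at 20 h they were frozen, after which left ventricular RNA was hybridised to 1-colour arrays. Each sex had 5 sham, 5 CLP and 6 CLP plus landiolol rats, with 1 array per rat, and RNA of low integrity had been discarded by the authors.

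Interferons are secreted when cells sense viral or bacterial nucleic acids or when activated T and NK cells release interferon-gamma. Type I interferons act through a complex of STAT and IRF9 proteins that binds interferon-stimulated response elements (ISRE), and interferon-gamma acts through STAT dimers that bind gamma-activated sites (GAS). The induced genes block viral replication, tag proteins with ISG15, attack vacuoles that hold pathogens, and load peptides onto MHC class I molecules. In heart tissue cardiomyocytes, endothelial cells, fibroblasts and resident macrophages can all express such genes.

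Promoters were examined first, because the members are defined by this response. RefSeq promoters (rat build GRCr8) were matched for 33 members, and the unmatched members were Ddx58, Dhx58, Gvinp1, Ifit1, Ifit2, Isg15, Mx2, Nlrc5, Rtp4, Usp18 and Zbp1. The ISRE core searched was GAAA, 2 bases of any kind, GAAA, and the GAS core was TTCNNNGAA. Both strands were searched over the 250 bases before and 50 bases after the gene's start, and matches to the 2 cores could overlap. An ISRE core was found in 21 of 33 members (63.6%) and in 1034 of 27457 rat promoters (3.77%). A GAS core was found in 10 of 33 members (30.3%) and in 8.68% of all promoters. Both cores were found in 7 members (21.2%) and in 0.524% of all promoters, and neither was found in 9 members. By role, the ISRE core was found in 5 of 6 interferon-inducible GTPases, 7 of 10 antiviral effectors, 2 of 2 genes of MHC class I presentation, 1 of 5 transcription factors and 0 of 3 genes of the ISG15 and ubiquitin-like system, while the GAS core was found in 3 of the 5 transcription factors. A match describes letters in the window and is not evidence of binding.

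In Igtp, Irgm and Parp14 the GAS core stood 2 bases before the ISRE core on the gene's own strand. This arrangement was found in 4 of the 27457 promoters (0.0146%), of which these were 3, and it was looked for after the sequences had been read. The 250 bases before the start of these 3 genes are shown for that arrangement, with Gbp5, a GTPase with an ISRE core only, and Trim25, the one member that was called higher after CLP, without either core. Capitals mark the matches, and sequences run 5′ to 3′ on the gene's strand. They lie at chr10:42874797-42875046 (plus strand, Igtp), chr10:33742579-33742828 (minus strand, Irgm), chr11:78407884-78408133 (plus strand, Parp14), chr2:233910749-233910998 (plus strand, Gbp5) and chr10:74309774-74310023 (plus strand, Trim25).
Igtp: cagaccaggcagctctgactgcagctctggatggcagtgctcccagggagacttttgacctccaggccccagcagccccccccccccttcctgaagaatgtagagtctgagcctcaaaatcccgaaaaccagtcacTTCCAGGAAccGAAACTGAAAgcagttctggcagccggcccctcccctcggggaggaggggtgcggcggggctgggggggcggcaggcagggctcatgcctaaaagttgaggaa
Irgm: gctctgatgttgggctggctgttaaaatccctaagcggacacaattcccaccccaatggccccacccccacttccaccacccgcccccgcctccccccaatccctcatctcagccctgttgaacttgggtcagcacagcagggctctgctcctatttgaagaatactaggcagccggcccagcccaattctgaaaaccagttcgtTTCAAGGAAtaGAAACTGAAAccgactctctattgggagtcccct
Parp14: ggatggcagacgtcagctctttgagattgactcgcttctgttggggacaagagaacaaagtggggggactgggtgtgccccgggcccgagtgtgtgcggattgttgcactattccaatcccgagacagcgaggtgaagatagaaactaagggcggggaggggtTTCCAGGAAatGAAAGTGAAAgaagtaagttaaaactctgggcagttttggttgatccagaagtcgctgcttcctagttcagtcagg
Gbp5: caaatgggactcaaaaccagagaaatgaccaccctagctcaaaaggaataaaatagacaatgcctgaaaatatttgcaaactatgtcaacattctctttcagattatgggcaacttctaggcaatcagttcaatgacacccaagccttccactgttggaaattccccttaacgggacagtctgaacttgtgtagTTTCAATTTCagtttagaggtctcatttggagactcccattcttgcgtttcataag
Trim25: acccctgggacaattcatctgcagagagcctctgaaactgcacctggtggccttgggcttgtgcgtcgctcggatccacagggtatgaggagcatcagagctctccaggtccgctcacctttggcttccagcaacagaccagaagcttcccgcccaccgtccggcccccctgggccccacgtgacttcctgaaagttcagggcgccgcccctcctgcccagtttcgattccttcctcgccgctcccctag
In Igtp the GAS core began 114 bases and the ISRE core 103 bases before the start of the gene, whereas in Irgm they began at 45 and 34 bases and in Parp14 at 87 and 76 bases.

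**Figure D1:**
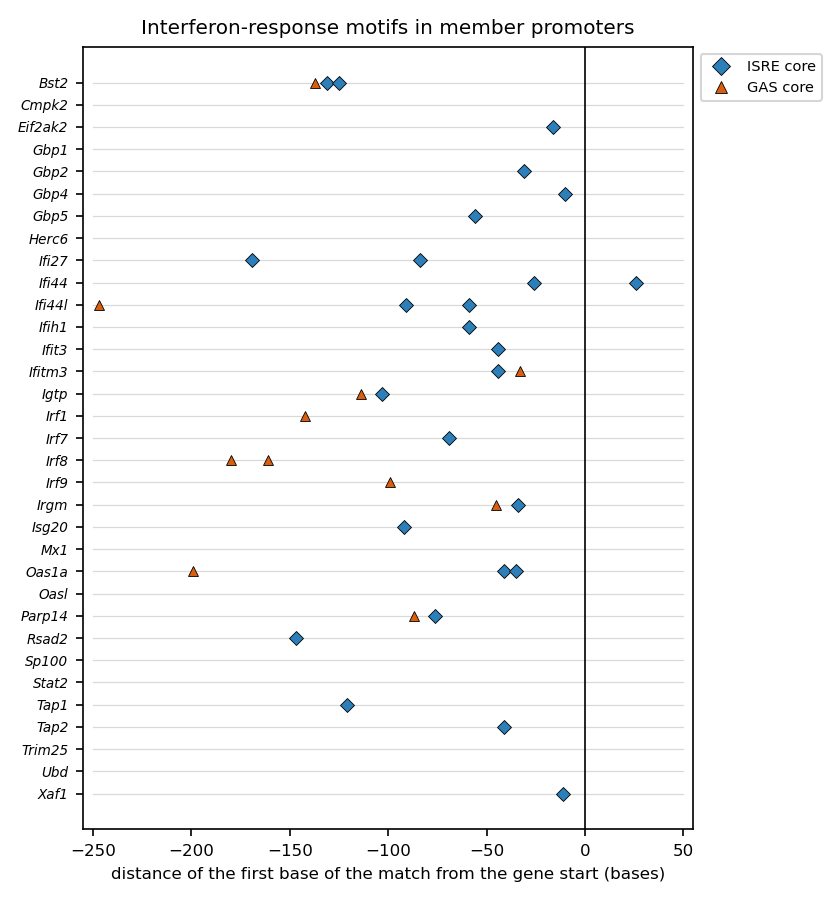
Matches of the ISRE core (diamonds) and the GAS core (triangles) in the promoters of the 33 members, 1 row per gene, with the distance of the first base of the match from the start of the gene on the horizontal axis in bases. The paired matches of Igtp, Irgm and Parp14 lie side by side at different distances from the start, and rows without a symbol held neither core.

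Levels are given as log2 of the scanner's background-corrected signal after quantile normalisation within a sex, so each value is in arbitrary log2 units that compare arrays for 1 probe but not different probes. A member with several probes was read by its brightest probe, the reported probe. Differences were tested with limma over all probes, and a gene was called at a false discovery rate of 1% against sham and of 5% between CLP plus landiolol and CLP. Males were hybridised on slides 1 and 2 and females on slides 3 and 4, so levels cannot be compared between sexes. The comparisons of CLP with sham and of CLP plus landiolol with CLP share the CLP arrays, so a high or low CLP array moves both. In ventricular tissue a change in the number of cells of a type and a change of RNA per cell cannot be told apart.

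All 7 cardiomyocyte markers were above background on all 32 arrays, and their mean log2 difference from sham lay between -0.16 and -0.10 in the 4 CLP and CLP plus landiolol groups. Of 5 neutrophil markers, 2 were bright enough to be tested in each sex, and 0 were above background on all arrays. After CLP 2 were called higher in males and 1 in females, and S100a8 was higher by 4.18 in males and 4.15 in females. Of 6 macrophage and monocyte markers 2, Cd68 and Adgre1, were called higher in each sex. No B cell marker of 4 was bright enough to be tested in either sex. Between 34920 and 43155 of 58717 non-control spots were well above background on an array, and no spot was saturated.

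In males, CLP lowered 6 interferon-stimulated genes and raised 1. Lower were Gbp4, Rtp4, Cmpk2, Isg15, Oasl and Usp18, and higher was Trim25. Of the 43 members tested, 39 had a negative log2 difference, with a median of -0.83 against -0.0034 over the 19729 genes tested. Over all genes 3.94% were called higher and 4.27% lower, beside 1 and 6 of 43 members. The groups did not overlap for 7 members, beside 12.8% of all genes.

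Trim25, a ubiquitin ligase that activates the RNA sensor RIG-I, was read at 11.10, 11.10, 11.51, 11.59 and 11.71 in sham males and at 12.66, 12.86, 13.20, 13.50 and 13.56 in CLP males. All 5 CLP arrays were above all sham arrays. The difference was 1.76 ± 0.19 (SE, adjusted p = 3.01e-05), and a second Trim25 probe gave 1.99 ± 0.24 (SE, adjusted p = 6.51e-05).

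Gbp4, a guanylate-binding GTPase of host defence, was read at 5.16, 5.29, 5.47, 7.10 and 7.86 in sham males and at 2.64, 3.16, 3.63, 4.53 and 4.55 in CLP males. The groups did not overlap, and 2 of the 5 CLP arrays were above background, so the level in CLP was at the lower end of what the array measures. The difference was -2.47 ± 0.54 (SE, adjusted p = 0.00561). Rtp4, an interferon-induced chaperone of receptor transport, was read at 8.33, 8.55, 8.85, 10.12 and 10.81 in sham males and at 6.73, 7.24, 7.49, 7.89 and 7.92 in CLP males. Every CLP array was below every sham array, and the 2 highest sham arrays stood more than 1 unit above the other 3. The difference was -1.88 ± 0.44 (SE, adjusted p = 0.00829).

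Cmpk2, a mitochondrial nucleotide kinase that lies beside Rsad2, was read at 9.002, 9.40, 9.75, 9.87 and 11.06 in sham males and at 7.49, 7.59, 8.09, 8.72 and 9.27 in CLP males. One CLP array lay above the lowest sham array, so the groups overlapped, and the difference of -1.58 ± 0.38 (SE, adjusted p = 0.00999) was just inside the threshold. Isg15, the ubiquitin-like tag itself, was read at 10.78, 10.81, 11.02, 11.83 and 12.56 in sham males and at 9.25, 9.68, 9.69, 10.24 and 10.31 in CLP males. These groups did not overlap and differed by -1.57 ± 0.33 (SE, adjusted p = 0.00417). Oasl, a 2′-5′-oligoadenylate synthetase-like protein, was read at 6.09, 6.43, 6.90, 7.06 and 7.46 in sham males and at 4.39, 4.90, 5.46, 5.46 and 6.02 in CLP males, of which 4 arrays were above background. The groups did not overlap, and the difference was -1.54 ± 0.37 (SE, adjusted p = 0.0094).

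Usp18, the protease that removes ISG15 and dampens the type I receptor, was read at 8.46, 8.96, 9.32, 9.33 and 9.38 in sham males and at 7.28, 7.61, 7.70, 7.99 and 8.06 in CLP males, without overlap. It differed by -1.36 ± 0.20 (SE, adjusted p = 0.000312). By role, the median log2 difference in males was -1.36 over 5 genes of the ISG15 and ubiquitin-like system, -1.27 over 7 GTPases, -1.09 over 7 other interferon-stimulated genes, -0.83 over 3 genes of MHC class I presentation, -0.78 over 4 sensors, -0.66 over 12 antiviral effectors and -0.24 over 5 transcription factors. Members at the antiviral end with little difference on their reported probes were Mx2 at -0.12 and Ifitm3 at 0.41, neither of which was called. A second, dimmer Mx2 probe, above background on 3 of 5 CLP arrays, gave -1.21 ± 0.55 (SE, adjusted p = 0.155) and was not called.

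The count in males depended on single arrays and on settings. It ranged from 2 to 8 when an array was left out, and it fell to 2 without sham replicate 2 or without CLP replicate 2, 3 or 4, to 3 without sham replicate 1, and to 4 without CLP plus landiolol replicate 2 or 4. Trim25 was called with every array left out. Of 16 such fits the call was kept in 12 for Isg15, 11 for Gbp4, 6 for Oasl, 3 for Rtp4 and 2 for Cmpk2. Gbp4, Rtp4, Trim25, Cmpk2, Isg15 and Oasl kept their sign under every setting run. With slide row as a term Rtp4 (adjusted p = 0.0112), Cmpk2 (adjusted p = 0.0162) and Oasl (adjusted p = 0.0106) were not called by limma. With normexp, a background correction that models the noise of dim spots, the difference was -0.95 (adjusted p = 0.0199) for Gbp4 and -1.57 (adjusted p = 0.0101) for Rtp4, so that neither was called, and -0.72 (adjusted p = 0.00705) for Oasl.

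In females, CLP lowered 11 members and raised Trim25. Lower were Ubd, Gbp4, Gbp2, Tap1, Gbp5, Irgm, Nlrc5, Rsad2, Irf1, Cmpk2 and Parp14. By role these were 4 of 7 interferon-inducible GTPases, 2 of 3 genes of MHC class I presentation, 2 of 12 antiviral effectors, 1 of 5 transcription factors, 1 of 5 genes of the ISG15 and ubiquitin-like system and 1 of 7 other genes. Of 42 members tested, 40 had a negative difference, with a median of -1.22 against -0.02 over 19464 genes. Over all genes 1.9% were called higher and 1.88% lower, and 11 members had groups that did not overlap, beside 8.61% of all genes. Gbp4, Cmpk2 and Trim25 were called in both sexes, in the same direction. In males, however, the Cmpk2 call was kept in 2 and the Gbp4 call in 11 of 16 fits with 1 array left out.

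Ubd, the ubiquitin-like protein FAT10 that marks proteins for the proteasome, was read at 10.04, 13.26, 13.49, 13.74 and 15.26 in sham females and at 6.09, 7.21, 7.30, 8.15 and 8.998 in CLP females. All CLP arrays lay below all sham arrays, and 1 sham array, at 10.04, was well below the other 4. The difference was -5.61 ± 0.75 (SE, adjusted p = 0.000314), the largest of any member tested in either sex. In males Ubd was read at 7.88, 8.41, 9.40, 12.29 and 13.97 in sham and at 6.78, 7.21, 7.71, 8.03 and 8.53 in CLP, a difference of -2.74 ± 1.009 (SE, adjusted p = 0.0793) with a wide spread among shams.

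The guanylate-binding proteins, which coat and open pathogen vacuoles, included 3 of the female calls. Gbp2 was read at 14.34, 15.67, 15.75, 15.75 and 15.86 in sham females and at 10.98, 12.10, 12.20, 13.35 and 13.74 in CLP females, without overlap, and the difference was -3.00 ± 0.49 (SE, adjusted p = 0.00134). Gbp4 was read at 7.12, 8.20, 8.32, 8.52 and 8.87 in sham females and at 3.92, 4.71, 5.32, 5.85 and 5.998 in CLP females, of which 4 arrays were above background, and the difference was -3.05 ± 0.42 (SE, adjusted p = 0.000383). With normexp it was -1.79 and was called. Gbp5, which also promotes inflammasome assembly, was read at 11.89, 12.66, 13.18, 13.41 and 13.50 in sham females and at 9.40, 9.46, 10.31, 10.38 and 11.11 in CLP females. Its groups did not overlap, and the difference was -2.80 ± 0.41 (SE, adjusted p = 0.000579). In males the differences of Gbp2 and Gbp5 were -1.85 ± 0.69 (SE, adjusted p = 0.0821) and -1.27 ± 0.84 (SE, adjusted p = 0.357), so neither was called. Gbp1 spread widely within groups and differed by -2.06 ± 1.48 (SE, adjusted p = 0.453) in females. Its only probe is placed on the minus strand by the array files, whereas the Gbp1 promoter lies on the plus strand of the newer build. Whether the probe reads Gbp1 RNA was not tested.

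Irgm, an immunity-related GTPase of autophagy, was read at 9.55, 10.72, 10.74, 11.27 and 11.99 in sham females and at 6.86, 7.69, 8.45, 8.71 and 8.89 in CLP females. The groups did not overlap and differed by -2.74 ± 0.49 (SE, adjusted p = 0.00264). Tap1, a subunit of the transporter that carries peptides to MHC class I, was read at 9.54, 10.38, 10.504, 10.81 and 11.08 in sham females and at 6.11, 7.60, 7.96, 7.98 and 8.30 in CLP females. Every CLP array was below every sham array, a difference of -2.88 ± 0.45 (SE, adjusted p = 0.000923). Nlrc5, the transactivator of MHC class I genes, differed by -2.50 ± 0.42 (SE, adjusted p = 0.0015) with 1 CLP array above the lowest sham.

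Irf1, the transcription factor that drives many interferon-gamma targets, was read at 16.05, 16.20, 16.26, 16.31 and 16.58 in sham females and at 13.19, 13.77, 14.07, 14.27 and 14.90 in CLP females. The groups did not overlap, and it fell by 2.24 on the log2 scale. In males Irf1 was read at 14.09, 14.74, 15.31, 15.40 and 16.003 in sham and 12.50, 13.78, 14.22, 14.64 and 14.66 in CLP, and the difference of -1.15 ± 0.49 (SE, adjusted p = 0.127) was not called. Irf9, Irf7, Irf8 and Stat2 were not called in females, at -0.16, -0.79, -1.07 and -0.55. By role, the female medians were -2.74 over 7 GTPases, -2.50 over 3 genes of MHC class I presentation, -1.35 over 5 of the ISG15 and ubiquitin-like system, -1.19 over 7 other interferon-stimulated genes, -0.79 over 5 transcription factors, -0.62 over 3 sensors and -0.51 over 12 antiviral effectors. The same 3 leading roles stood at -1.27, -0.83 and -1.36 in males.

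**Figure D2:**
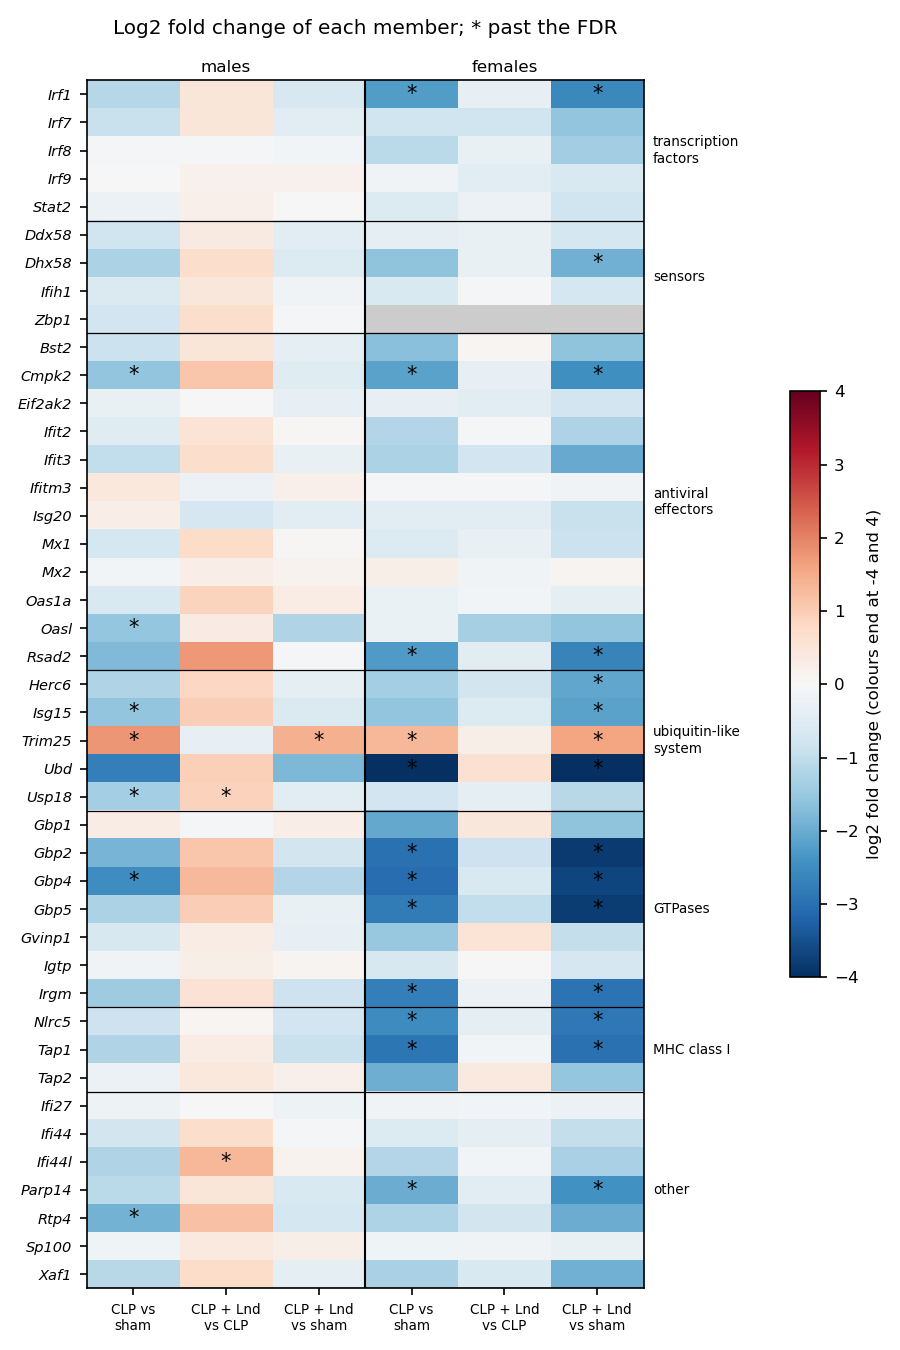
Log2 fold change of each tested member (rows, grouped by role) in the 3 comparisons of each sex (columns), in blue where lower and red where higher, with colours that end at -4 and 4, a star where the gene was called and grey where it was not tested. Blue fills most of the columns of CLP against sham, Trim25 is red there, and the column of CLP plus landiolol (Lnd) against CLP is mostly red in males and pale blue in females.

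All 5 female sham arrays lay in the first row of their slides and all 6 female CLP plus landiolol arrays in the second, with 3 of 5 CLP arrays in the first, so row and group are partly tied in females. With the row as a term, 5 members were called in females after CLP (Trim25 higher and 4 lower, Ubd at -5.60, Gbp4 at -2.91 and Gbp5 at -2.88 among them), and the median was -0.93. Gbp2 (-2.92, adjusted p = 0.0106), Tap1 (-2.62, adjusted p = 0.0102) and Irgm (-2.57, adjusted p = 0.0203) were then not called. The count was 11 to 14 when an array was left out. Within slides, 39 of the 42 members tested in females had a negative difference on slide 3 and 35 on slide 4, with medians of -1.70 and -0.51. In males 40 of 43 members were negative on slide 1 and 33 on slide 2, with medians of -1.38 and -0.32. The slides are parts of the arrays that gave the calls, so they are no separate check of them.

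The arrays varied together over the members. The mean over 43 members in males, relative to the sham mean, was 0.89 and 0.41 in the sham arrays of slide 1 and -0.37, -0.48 and -0.44 in those of slide 2. The CLP males ranged from -1.28 to -0.58, below all shams, and CLP plus landiolol males ranged from -0.59 to 0.07 with a median of -0.35. In females the shams were at -0.95, 0.14, 0.15, 0.30 and 0.36, the CLP arrays ranged from -2.39 to -0.71 and the CLP plus landiolol arrays from -1.90 to -1.34. One female sham array therefore lay within the CLP range, and 4 lay above it. Over arrays, after group means were removed, the mean pairwise correlation among members was 0.42 in males and 0.44 in females, beside 0.0017 and 0.0038 over all genes kept. These correlations are a description over 16 arrays a sex that share normalisation and slides. They were highest in MHC class I presentation, at 0.81 and 0.77 over 3 genes.

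**Figure D3:**
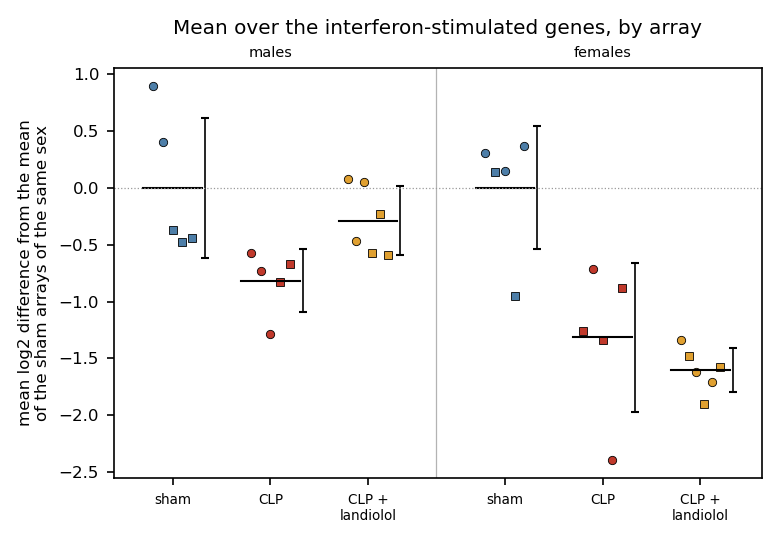
Mean log2 difference from the sham mean over the members tested, 1 point per array, by sex and group, with circles for slides 1 and 3 and squares for slides 2 and 4, a line at the group mean and a bar of 1 SD. The 2 highest male shams are both on slide 1, and the mean of CLP plus landiolol lies above that of CLP in males and below it in females, with overlapping arrays in both sexes.

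In males, landiolol was accompanied by higher levels of 2 members, Usp18 and Ifi44l, relative to CLP. Of 43 members, 36 had a positive difference, with a median of 0.49 against 0.0030 over all genes. Over all genes 0.902% were called higher and 0.715% lower, beside 2 and 0 of 43 members. Groups did not overlap for 5 members, Isg15, Ifi44, Ifih1, Usp18 and Rtp4, beside 2.35% of all genes, and 4 of these 5 were not called.

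Usp18 was read at 8.23 to 9.03 (median 8.65) in CLP plus landiolol males, above all 5 CLP arrays (7.28 to 8.06), and the shams lay at 8.46 to 9.38. It was higher than in CLP by 0.92 ± 0.19 (SE, adjusted p = 0.0272) and differed from sham by -0.45 ± 0.19 (SE, adjusted p = 0.165). Ifi44l, an interferon-induced protein of the IFI44 family, was read at 6.002, 6.32, 6.78, 7.11 and 7.61 in sham, at 4.98, 5.15, 5.47, 5.74 and 6.53 in CLP and at 6.41 to 7.44 (median 6.81) in CLP plus landiolol males. The highest CLP array lay above the lowest CLP plus landiolol array. The difference from CLP was 1.32 ± 0.32 (SE, adjusted p = 0.0488), whereas a second Ifi44l probe gave 0.79 ± 0.28 (SE, adjusted p = 0.199) and was not called.

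Rsad2, the radical enzyme viperin that makes an antiviral nucleotide, had the largest positive difference in this comparison. It was read at 9.86, 9.99, 10.29, 10.94 and 12.18 in sham, at 7.71, 8.01, 8.76, 9.72 and 10.26 in CLP and at 9.78 to 11.38 (median 10.63) in CLP plus landiolol males. The last 2 groups overlapped, and the difference of 1.72 ± 0.49 (SE, adjusted p = 0.1) was not called. Gbp4 differed by 1.31 ± 0.52 (SE, adjusted p = 0.249) and Rtp4 by 1.17 ± 0.42 (SE, adjusted p = 0.199). Against sham, 1 member, Trim25, was called higher in CLP plus landiolol males (1.44) and none lower, beside 2.51% and 1.88% of all genes, and the median was -0.32.

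The 2 calls in males depended on single arrays. Without CLP replicate 3 or 4, or CLP plus landiolol replicate 1, 2 or 6, no member was called, and without CLP replicate 1 there were 5. Over the 16 fits with 1 array left out, Usp18 kept its call in 11 and Ifi44l in 3. Under 16 other settings Usp18 kept it in 14 and Ifi44l in 8. The sample titles carry a code that was read as a date, although the labels do not say what it stands for. With that code as a linear term Usp18 lost its call (0.82, adjusted p = 0.121), as did Ifi44l (1.097, adjusted p = 0.205). Within slides the median over 43 members was 0.74 on slide 1 and 0.25 on slide 2.

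In females, landiolol was accompanied by no called member relative to CLP. Of 42 members 36 had a negative difference, with a median of -0.31 against 0.02 over all genes. Groups did not overlap for 0 members, beside 1.19% of all genes. limma called 0 members, and 2 had an unadjusted p under 0.05, beside 9.44% of all genes at that level, while 0.0565% of all genes were called higher and 0.0308% lower. SAM, the kind of test the study used, called 0 members too, here with fewer relabellings and another probe filter than in the study. With slide row fitted as a term the median was 0.06, so the negative shift did not keep its sign.

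The smallest p-values belonged to Gbp5, Oasl and Irf9. Gbp5 was read at 8.49 to 10.17 (median 8.93) in CLP plus landiolol females, overlapping CLP (9.40 to 11.11), with a difference of -0.99 ± 0.39 (SE, adjusted p = 0.423). Oasl was read at 4.90, 5.11, 6.66, 6.70 and 7.62 in CLP females and at 2.62 to 6.22 (median 4.96) in CLP plus landiolol females, a difference of -1.34 ± 0.62 (SE, adjusted p = 0.528). Irf9, the DNA-binding subunit of the type I complex, was read at 10.60, 11.38, 11.45, 11.48 and 12.15 in CLP and at 10.73 to 11.12 (median 10.99) in CLP plus landiolol females, a difference of -0.45 ± 0.22 (SE, adjusted p = 0.547). All 3 pairs of groups overlapped. With slide row as a term the differences were -1.11 for Gbp5, -0.15 for Oasl and -0.08 for Irf9.

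Relative to sham, CLP plus landiolol females had 14 members lower and Trim25 higher, beside 2.37% and 3.12% of all genes. The median was -1.57, and 22 members had groups that did not overlap, beside 10.2% of all genes. This comparison shares its sham arrays with that of CLP. Among the members called were Isg15 (-2.15), Herc6 (-2.07), an ISG15 ligase, and Dhx58 (-1.91), a RIG-I-like sensor, whose differences between CLP and sham were -1.59, -1.35 and -1.60 and were not called. Gbp2 fell by 3.83, Gbp5 by 3.78, Gbp4 by 3.66 and Ubd by 4.99 on the log2 scale. With slide row fitted as a term no member was called (median -0.79). Every sham array was in one row and every CLP plus landiolol array in the other, so between these groups the row and the treatment cannot be told apart.

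**Figure D4:**
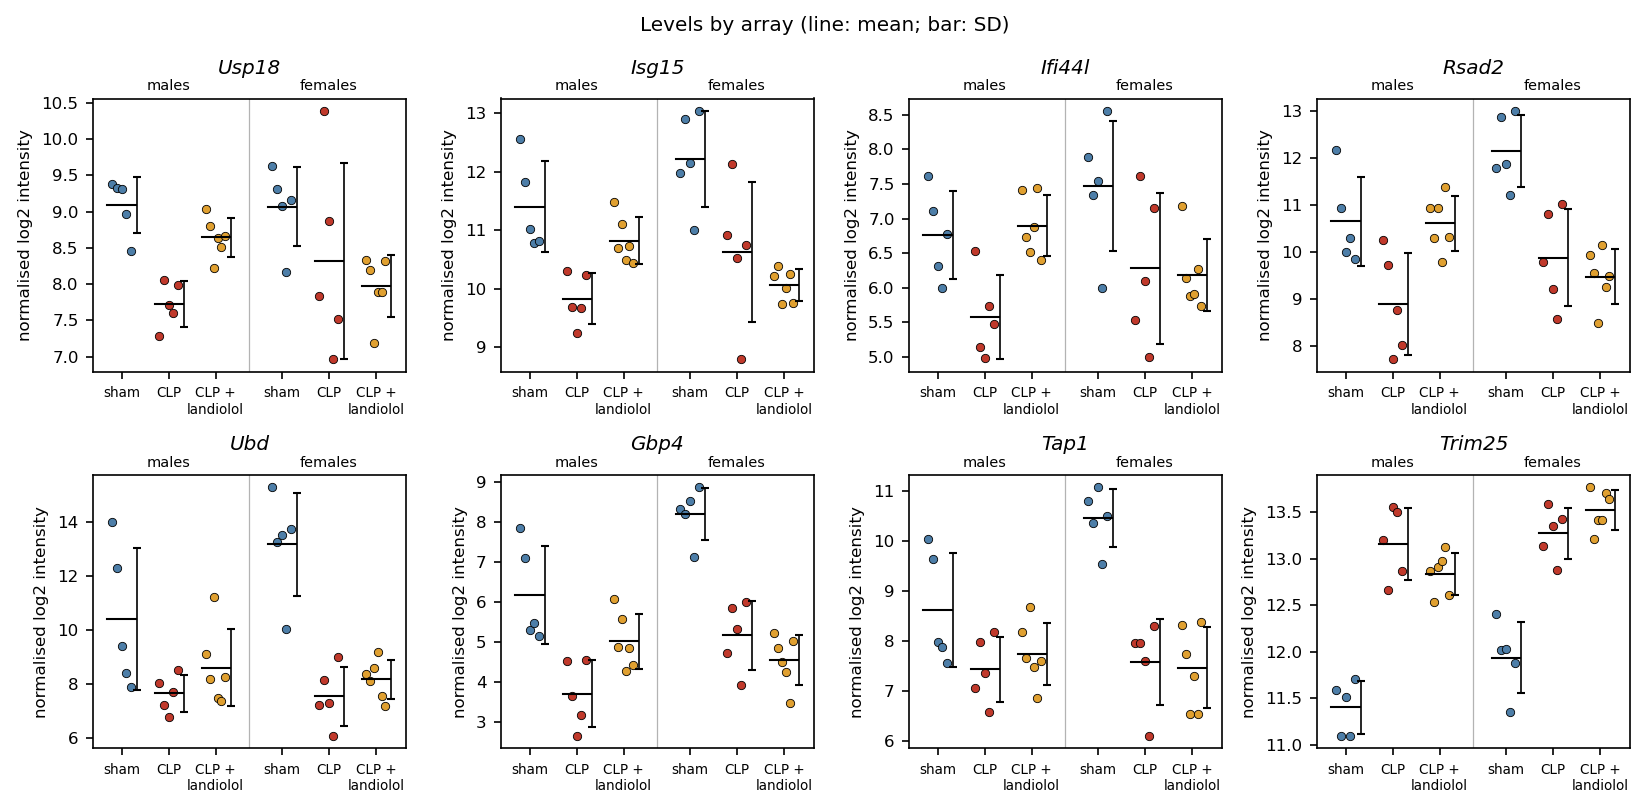
Normalised log2 intensity of 8 named members (vertical axis), 1 point per array by group and sex, with a line at the group mean and a bar of 1 SD. Ubd, Gbp4 and Tap1 are lower in all CLP females than in all sham females, and Trim25 is higher in all CLP rats than in all shams of the same sex.

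Whether the change differed between the sexes was tested as an interaction on both sexes normalised together. For CLP against sham, 0 of 42 members were called, as were 0 of 18992 genes (0%), while 5 members had an unadjusted p under 0.05, beside 3.5% of all genes. The median female minus male difference was -0.38. The smallest p-values were those of Tap2 at -1.75 ± 0.65 (SE, adjusted p = 1), Nlrc5 at -1.70 ± 0.65 (SE, adjusted p = 1) and Tap1 at -1.72 ± 0.68 (SE, adjusted p = 1), the 3 genes of MHC class I presentation. Tap2, the partner of Tap1, was read at 10.41, 10.66, 10.77, 11.92 and 12.38 in sham males, 10.52, 10.57, 11.09, 11.42 and 11.45 in CLP males, 12.03, 12.04, 12.25, 13.03 and 13.37 in sham females and 8.51, 10.496, 10.71, 11.02 and 12.25 in CLP females. The male groups overlapped, and in females 1 CLP array reached the sham range. Nlrc5 was read at 9.86, 10.33, 10.34, 11.61 and 12.69 in sham males, 9.63, 10.06, 10.21, 10.38 and 10.39 in CLP males, 11.28, 12.46, 12.73, 13.04 and 13.21 in sham females and 8.78, 9.81, 9.85, 10.30 and 11.48 in CLP females. Tap1 was read at 7.56, 7.90, 7.99, 9.65 and 10.06 in sham males and 6.59, 7.07, 7.37, 7.99 and 8.18 in CLP males, with overlap.

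For CLP plus landiolol against CLP, 0 of 42 members and 0 of 18992 genes (0%) were called, and 18 members had an unadjusted p under 0.05, beside 4.83% of all genes. The median was -0.72 against 0.04 over all genes, and 37 of 42 members had a negative value, meaning a lower change in females. The smallest p-values were those of Rsad2 at -2.11 ± 0.69 (SE, adjusted p = 0.972), Gbp4 at -1.95 ± 0.68 (SE, adjusted p = 0.972) and Rtp4 at -1.91 ± 0.67 (SE, adjusted p = 0.972). With normexp the Gbp4 value was -0.57. Rsad2 was read at 11.21, 11.80, 11.89, 12.89 and 13.01 in sham, 8.57, 9.21, 9.80, 10.81 and 11.03 in CLP and 8.48 to 10.15 (median 9.52) in CLP plus landiolol females. Gbp4 was read at 4.26 to 6.08 (median 4.86) in CLP plus landiolol males and at 3.47 to 5.21 (median 4.66) in CLP plus landiolol females. Rtp4 was read at 8.07 to 9.41 (median 8.53) in CLP plus landiolol males, 7.23, 9.10, 9.25, 9.42 and 11.47 in CLP females and 8.09 to 8.89 (median 8.62) in CLP plus landiolol females. CLP plus landiolol lay above CLP in all 6 male arrays for Rtp4, and in females the 2 groups overlapped. A difference in response between the sexes was not detected for any single member.

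Igtp, an immunity-related GTPase, gave different answers by probe. Its 3 probes are shown by their first 30 bases, because they disagree, with their places in rat build rn4 as the files give them. The reported probe lay at chr10:43837008-43837067, the second at chr10:43835826-43835885 and the last at chr10:43852039-43852098, all on the plus strand. The array files name the gene but not the exon or UTR, and the last probe carried the name Igtp in 1 of 2 annotation versions.
Igtp, reported probe: ggatctgatgccctcttctgatctatctga
Igtp, second probe: agcgcatatgaccttatcatcatcattgct
Igtp, last probe: caagtaccatggtctcttagaaacccttta
On the reported probe sham females were read at 15.43, 15.75, 15.94, 15.98 and 16.18 and CLP females at 14.79, 15.00, 15.08, 15.25 and 15.97. The difference was -0.64 ± 0.22 (SE, adjusted p = 0.0818) and was not called. On the second probe they were read at 10.61, 11.63, 11.85, 12.64 and 12.78 and 7.02, 9.04, 9.11, 9.12 and 9.87, a difference of -3.07 ± 0.51 (SE, adjusted p = 0.00154), and on the last at 9.89, 10.69, 11.01, 11.13 and 12.12 and 6.03, 7.75, 7.90, 8.54 and 9.14, a difference of -3.10 ± 0.50 (SE, adjusted p = 0.00112). Both dimmer probes were called and had sham and CLP groups that did not overlap. In CLP plus landiolol females against sham the dimmer probes differed by -3.44 and -3.88 and were called, and the reported probe by -0.66. Slide row and treatment cannot be told apart between these groups. In males none of the 3 was called after CLP, and the probes disagreed there too. The difference was -0.13 on the reported probe. It was -1.65 ± 0.50 (SE, adjusted p = 0.0342) on the second probe and -1.59 ± 0.62 (SE, adjusted p = 0.0932) on the last.

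**Figure D5:**
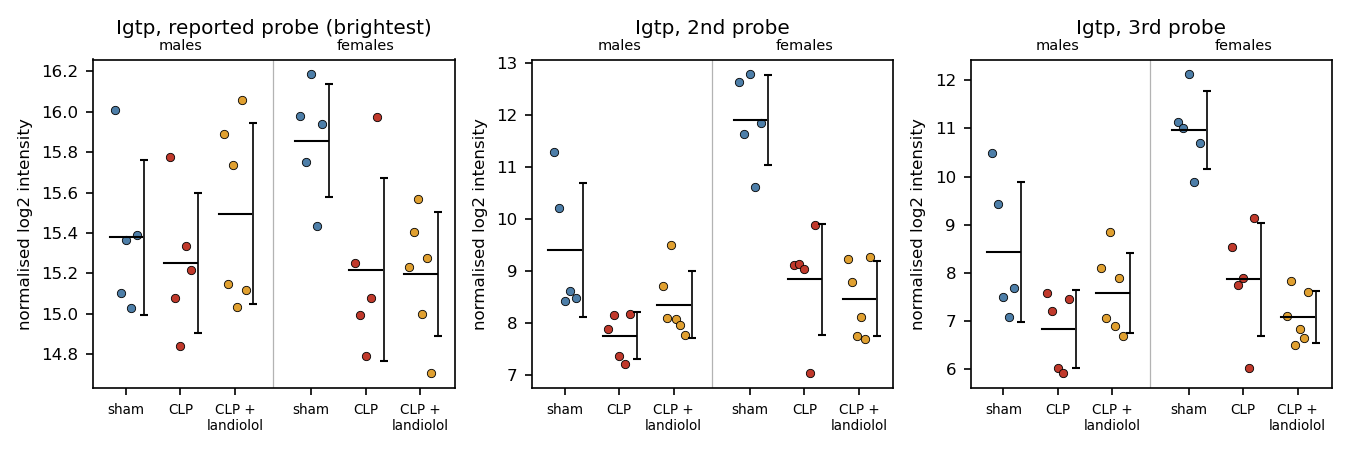
Normalised log2 intensity of the 3 Igtp probes (vertical axes of different range), 1 point per array by group and sex, with a line at the group mean and a bar of 1 SD. On the dimmer probes all CLP and CLP plus landiolol females lie below all sham females, while the reported probe lies between 14.7 and 16.2 on all arrays.

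Probes of other members disagreed too. After CLP in males a second probe had the opposite sign for Ifitm3, a restriction factor of virus entry (-0.49 against 0.41), and Irf8 (0.17 against -0.07). After CLP in females this was so for Mx2, a dynamin-like GTPase (-0.43 against 0.22), and Oas1a, an antiviral synthetase (0.01 against -0.26), and none of these values was called. Rsad2, called lower in CLP females at -2.28, gave -2.31 ± 0.63 (SE, adjusted p = 0.0309) on its second probe and was not called there. Between CLP plus landiolol and CLP in males Mx2 differed by 0.27 on the reported probe and by 1.42 on the second, and neither was called. The member of highest signal was also followed in each role, on its reported probe. Mx2 was read at 13.73, 13.79, 14.17, 14.24 and 14.87 in sham males and 13.54, 13.88, 13.96, 13.99 and 14.82 in CLP males, and at 13.61, 13.96, 14.18, 14.24 and 14.85 in sham females and 13.89, 14.05, 14.43, 14.69 and 14.90 in CLP females. Ifi27, a mitochondrial interferon-induced protein, was read at 13.33, 13.37, 13.58, 13.73 and 13.81 in sham males, 13.18, 13.38, 13.38, 13.44 and 13.47 in CLP males, 13.25, 13.26, 13.33, 13.36 and 13.50 in sham females and 12.89, 12.90, 13.32, 13.44 and 13.49 in CLP females, with overlap in both sexes. Ddx58, which encodes the sensor RIG-I, was read at 7.35, 7.87, 8.14, 8.20 and 8.50 in sham males and 6.97, 6.99, 7.35, 7.40 and 7.41 in CLP males, a difference of -0.78 ± 0.23 (SE, adjusted p = 0.0302). In females it was read at 8.26, 8.40, 8.75, 8.76 and 8.78 in sham and 7.48, 7.65, 7.96, 8.61 and 9.31 in CLP.

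The ligands and receptors of the pathway were read beside the members. Ifng was above background on 3 of 5 sham arrays in each sex, on 0 of 5 CLP arrays and on 0 of 6 CLP plus landiolol arrays, and was too dim to be tested. CLP values under the lowest signal of any probe above background were raised to that signal. Against these, the Ifng sham mean was 1.43-fold higher in males and 1.31-fold higher in females. The values are rough, because that signal is not the limit of the Ifng probe and the sham mean includes arrays below background. Among type I ligands, Ifnb1 was tested in both sexes at -1.64 ± 0.73 (SE, adjusted p = 0.149) in males and 0.73 ± 0.74 (SE, adjusted p = 0.617) in females, Ifna4 and Ifnk were not called, Ifna1 was tested in males only and was not called, and Ifna2 and Ifne were above background on no array. Ifna5 was above background on 1 female CLP array and no other. Of 6 receptor genes (Ifnar1, Ifnar2, Ifngr1, Ifngr2, Ifnlr1 and Il10rb), none was called after CLP in either sex, with differences from 0.34 to 0.91 in males and from -0.12 to 0.59 in females, and none was called between CLP plus landiolol and CLP.

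Some kinases and phosphatases of the pathway rose after CLP, mostly in males. Jak2, a kinase of the interferon-gamma receptor, was higher after CLP in males by 2.03, Ptpn2, a phosphatase that dephosphorylates JAK and STAT proteins, by 1.48 and Ptpn6, a phosphatase of immune receptors, by 1.37, which were 3 of 9 genes in that list. In females 1 of 9, Ptpn2, was called higher (0.86). The list median was 0.31 in males and -0.02 in females. Over all genes 3.94% were called higher after CLP in males and 1.9% in females. Between CLP plus landiolol and CLP in males Ptpn2 fell by 0.76 and Ptpn6 was higher by 0.76, beside 0.715% of all genes lower and 0.902% higher. Of 14 sensing genes tested in males 1 was called after CLP, the adaptor Myd88 (0.87), and of 12 in females none. Il18, a cytokine that induces interferon-gamma, was higher by 1.18 in males and 0.997 in females, 1 of 5 and 1 of 4 genes tested of its axis.

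Other interferon-induced genes, outside the 44, were read as well. In males 4 of 24 were lower after CLP and 1 higher (Serping1, an inhibitor of complement C1, by 0.76), with a median of -0.41. Over all genes 4.27% were called lower and 3.94% higher. Lower were Cxcl9 (-2.72) and Cxcl10 (-2.66), chemokines that attract T cells, Epsti1 (-1.07) and Ciita (-0.90), the transactivator of MHC class II. In females, beside 1.88% of all genes lower and 1.9% higher, 8 of 24 were lower and 0 higher, with a median of -1.16. They were Cxcl9 (-6.27), Cxcl10 (-5.08), the transcription factor Batf2 (-3.30), the immunoproteasome subunits Psmb9 (-2.34) and Psmb10 (-1.21), Ciita (-1.89), and Tapbp (-1.13) and B2m (-0.96) of the MHC class I complex. Between CLP plus landiolol and CLP none of the 24 was called in either sex, with medians of 0.16 in males and -0.11 in females. Slide row, which is partly tied to group in females, was not fitted as a term for these 24 genes.

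T and NK cell markers were read beside the members. Of 15 on the array, 10 were tested in males and 9 in females, 5 were above background on all arrays and 2 on none. Cd3e, which defines T cells, was above background on 1 of 16 male arrays and 1 of 16 female arrays. The mean over the tested markers, relative to sham, ranged from -0.22 to 0.25 in sham males, from -1.07 to -0.53 in CLP males and from -0.65 to 0.27 in CLP plus landiolol males. In females it ranged from -0.17 to 0.15 in sham, from -0.90 to -0.26 in CLP and from -0.73 to -0.44 in CLP plus landiolol, with means of -0.55 and -0.56 in the last 2 groups. Gzmb, a protease of cytotoxic cells, was called lower in CLP females (-1.84), as 1 of 9 markers, and no marker of this list was called in males. Macrophage and monocyte markers, all 6 above background on all arrays, had a mean of 0.81 in CLP males and 0.77 in CLP females. The part of any cell type in the levels of the members was not tested.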

How the data were processed

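Left ventricular RNA of 32 rats was hybridised to 1-colour Agilent arrays. The authors deposited scanner output of Feature Extraction 10.5, in which each spot has a processed intensity (background-subtracted) and a flag for signal well above background, and log2 values that the authors deposited after their own normalisation. The latter ranked probes like the scanner values (rank correlation 0.988 to 1.00 per array), and it served as an alternative. No column of comparisons was present.

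Replicate spots were averaged, log2 values were quantile-normalised within a sex, and 213 outlier-flagged probe values were left out. A probe was kept where 80% or more of the arrays in any 1 group had it flagged well above background (25864 in males, 25394 in females, 24768 in both). limma 3.58.1 (R 4.3.3, with version 1.17.8 of the data.table package) was fitted over 3 groups a sex, two-sided, with Benjamini-Hochberg adjustment over all probes, at 1% against sham and 5% for CLP plus landiolol against CLP and for the interaction. The fit was tested on simulated data. A gene was read by its probe of highest mean over the 32 arrays. Replicate numbers are names in accession order and pair no samples.

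Values of each array are given for the 6 members with the largest called change after CLP in each sex, for members called with landiolol or, where none was, the 3 of smallest p, for the 3 of smallest interaction p, and for the brightest member of each role. Members and lists were chosen with earlier results of these data known. Alternatives were 75th percentile scaling, normexp background correction with offset 50, other filters, array weights, other probe rules, other thresholds and leaving out each array. Terms for the slide, the row and the code of the sample titles, read as a date, were also fitted. SAM was run too, with fewer relabellings and another probe filter than in the study. The number of arrays limits the precision.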

Additional observations from a re-analysis of the deposited data

Results flagged for a closer look

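Of 138 groups of 5 or 6 arrays examined for an array far from the rest, 5 had one, and chance gives about 6.9. Oasl was at 8.12 in female sham replicate 2, with the next array at 6.204. Ifi44l was at 7.18 in female CLP plus landiolol replicate 1, with the next at 6.27. Gbp2 was at 14.3 in female sham replicate 4, below the next lowest at 15.7. Ifi27 was at 13.0 in male CLP plus landiolol replicate 5, below the next lowest at 13.4. The mean over the members was -0.95 in female sham replicate 4, below the next lowest at 0.14.

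The arrays of CLP plus landiolol lay on opposite sides of the CLP mean in the 2 sexes. Relative to the CLP mean of the same sex, all 6 males were above it, from 0.23 to 0.89 with a mean of 0.53, and all 6 females were below it, from -0.59 to -0.02 with a mean of -0.29. The female minus male difference of these means was -0.82, and the difference of this mean was not tested. The female shift was smaller than the SD of CLP females (0.65), and with slide row as a term the median over the members in females was 0.06, so its sign turned. All 6 female CLP plus landiolol arrays lay in 1 slide row.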

How the results depend on the processing

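Between 2 and 8 members were called after CLP in males when 1 array was left out, 0 to 5 with landiolol against CLP in males, 11 to 14 after CLP in females and 12 to 20 for CLP plus landiolol against sham in females. After CLP in males the count of 7 became 3 without the filter on dim probes, 2 with only the compared groups in the fit, 4 with slide row as a term, 18 at 5% and 2 by SAM. With landiolol against CLP in males the count of 2 became 1 with 75th percentile scaling, normexp, no filter, only the compared groups, the row or the mean over probes. The same count became 9 with array weights, 0 with the title code, read as a date, as a term and 0 at 1%. For CLP plus landiolol against sham in males it became 2 at 5%. In females the count of 12 after CLP became 5 with the row and 5 by SAM, and the count of 15 against sham became 0 with the row and 23 at 5%. The 0 calls for landiolol against CLP in females held in 16 settings, and the 0 interaction calls in 13. Lists of genes called under each setting were not compared. The 14 named results that were called kept their call in 182 of 222 values under other settings and lost it in 40. The 9 that were not called gained none in 125 values. No sign turned among them. These values exclude the fits with 1 array left out, in which 64 values of named results lost their call and 400 stayed as reported. Of 16 such fits after CLP in males, Cmpk2 kept its call in 2, Rtp4 in 3 and Oasl in 6. After CLP in females Ubd, Gbp4, Gbp2, Tap1, Gbp5 and Irgm kept theirs in all 16. No paired analysis was run, because the groups held different rats with 1 array each. Dim probes such as Gbp4 limit what the arrays can measure: with normexp its difference after CLP in males was -0.95 and was not called.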
